A study of Mus musculus with 10 samples.

Results

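Cluster 15 of the colonic cells is a group of 66 cells that the authors' table of cell labels calls "other". It was taken here as every cell with that label, 66 of the 25204 labelled cells of the series, and all 66 came from the library of colonic crypts from DSS treated mice. They made up 3.41% of the 1933 labelled cells of that library (95% exact binomial interval 2.65 to 4.32%). None of the 1132 labelled cells from colonic crypts of normal mice was in the cluster, which allows a share of up to 0.265%, and none of the organoid cells was. The cells of the cluster held the transcripts of neutrophils and are called neutrophil-like below.

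The series holds 10 single-cell RNA-seq libraries, 8 of mouse intestinal organoids and 2 of colonic crypts, and the organoid cells enter no comparison here. One colonic library came from normal mice and the other from mice given dextran sulfate sodium (DSS), a salt that injures the colonic epithelium when it is drunk. In the colitis model of the study's methods, 8-week-old female mice drank 2.5% DSS for 5 days and then water, but whether this applies to the library, the day on which these crypts were taken, and the number and strain of the mice behind each library are not given in the sources used here. Each condition is 1 library, so no test of DSS against normal was possible and every interval below covers counting error only. The labels describe crypt isolation by EDTA and straining for small intestine, a preparation that enriches epithelium, and how the colonic cells were brought into suspension is not given in the sources used here.

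Neutrophils are short-lived phagocytes that are made in bone marrow and enter injured tissue from blood within hours. While they develop they fill granules in a fixed order: azurophil granules with myeloperoxidase and elastase first, specific granules with lactoferrin and cathelicidin next, and gelatinase granules last. Mature cells in tissue contain little RNA, carry the calcium-binding pair S100A8 and S100A9 in bulk, and can make IL-1β and the chemokine CXCL2, which draws further neutrophils.

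The 66 cells held 246586 UMIs (unique molecular identifiers, each counting 1 captured transcript), or 0.761% of those of the labelled DSS cells. A cell had a median of 3291 UMIs (range 1019 to 12235) and 913 genes (range 525 to 1675), against 16051 UMIs and 3749 genes in all labelled cells of the library. Both labelled sets matched exactly the barcodes with over 500 genes, over 1000 UMIs and at most 20% mitochondrial UMIs. The methods, which speak of 8 samples, state a minimum of 1500 genes. It would have left 3 of the 66 cells and 1400 of the 1933 labelled DSS cells. Mitochondrial transcripts were 1.23% of a cell's UMIs at the median, with a range of 0.291 to 17.0%. The 100 highest genes took 64.0% of all UMIs of the cluster, and ribosomal protein genes took 2.62% against 16.6% in the Ptprc-low clusters. No cluster 15 barcode occurred in the normal library, while 42 barcode sequences were present in both libraries and 2 were labelled in both.

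Ptprc, which encodes the leukocyte antigen CD45, had a UMI in 45 of the 66 cells (68.2%). It stood at 385 CPM (interval 312 to 471), against 1.94 CPM in the Ptprc-low and 484 CPM in the Ptprc-high cells defined next. CPM are the UMIs of a gene, summed over a group of cells and scaled to a common total, on which 1 UMI in cluster 15 is 4.06 CPM. Of 15 genes that leukocytes share, 14 were found and Cd48 was at 0. The 25 clusters of the colonic cells were split at a share of 50% of cells with a Ptprc UMI into 19 Ptprc-low clusters and 6 Ptprc-high clusters, cluster 15 among the latter. Cluster 15 was then set against the 1488 DSS cells of the Ptprc-low clusters and against the 326 DSS cells of clusters 0, 8 and 11, the other Ptprc-high clusters with over 60 cells in both colonic libraries together. Over both libraries, at least 3 T cell markers were seen in 99.0% of cluster 0 and 99.1% of cluster 11, and at least 3 B cell markers in 94.0% of cluster 8. A gene was called higher or lower at a ratio of 4 or more after 10 CPM had been added to both groups. The Ptprc-low DSS cells, with a median of 20950 UMIs, had a Ptprc UMI in 2.08% of cells, and clusters 0, 8 and 11, with a median of 3508.5 UMIs, in 77.6%. Whether Ptprc stood below or above the level of clusters 0, 8 and 11 depended on the scale: the ratio was 0.801, and 2.21 or 1.08 after the rescalings described below. The groups were split by Ptprc itself, so its low and high levels in them follow from the split. The clusters were built from these same genes, so the differences between them describe the cluster and carry no test.

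The 16 neutrophil markers were all found in cluster 15 and together took 30.7% of its UMIs. They took 646 CPM in the Ptprc-low clusters (123 CPM without cluster 22) and 96.6 CPM in clusters 0, 8 and 11, against 306506 CPM in cluster 15. Each of the 66 cells held between 6 and 16 of them, with a median of 11. After every cell had been thinned to 2000 UMIs, at least 3 neutrophil markers remained in 61 of 61 cells of cluster 15 (100%, interval 94.1 to 100%; the 5 shallower cells were left out) and in none of 303 cells of clusters 0, 8 and 11. Without thinning the counts were 66 of 66 cells and 0 of 326 cells. Clusters 0, 8 and 11 are lymphocytes by the markers above. In cluster 21, a small Ptprc-high cluster with monocyte and macrophage markers, 28.6% of 21 cells held at least 3 neutrophil markers without thinning. These were 6 DSS cells, with a median of 0.0925% of their UMIs in the list. The median cell of cluster 15 had 20.5% of the UMIs of the median labelled DSS cell. Among genes found in at least 20% of its cells, the 10 of largest ratio over the Ptprc-low clusters included 4 of the markers (Retnlg, S100a9, S100a8 and G0s2). The clusters were built from these same genes, so this rank describes cluster 15 and carries no test.

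**Figure D1:**
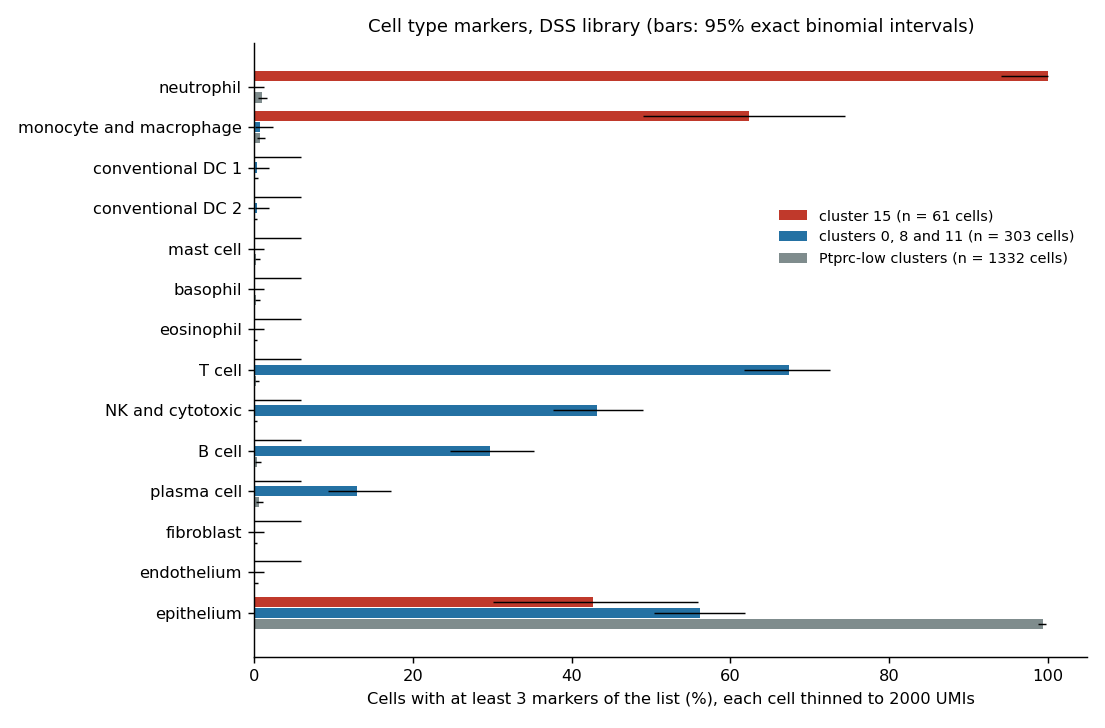
Share of DSS cells with at least 3 markers of each cell type list after thinning every cell to 2000 UMIs, as bars with 95% exact binomial intervals, for cluster 15 (red), clusters 0, 8 and 11 (blue) and the Ptprc-low clusters (grey). Cluster 15 reaches 100% for neutrophil markers and 0% for T, B and plasma cell markers, and its other long bars are the monocyte and macrophage list at 62.3% and the epithelium list at 42.6%.

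Markers of most other cell types were at or near 0. The 18 T cell genes summed to 4 UMIs over all 66 cells, the 10 B cell genes to 6, the 11 NK and cytotoxic genes to 2 and the 9 eosinophil genes to 7, all of them Siglecf. Cd3e, Cd79a, Ncr1, Epx, Flt3, Zbtb46, Kit and Mcpt8 had no UMI. The dendritic cell lists had 10 to 15 UMIs each, except that of conventional DC 2 with 52 (211 CPM, against 14.7 and 58.6 CPM), of which 46, in 30 cells, were Sirpa, an inhibitory receptor of myeloid cells. Among leukocyte lists other than the neutrophil and pan-leukocyte lists, at least 3 genes were seen only for the monocyte and macrophage list, with 3 of its 19 genes in 50 of 66 cells. Of its 1649 UMIs, Lyz2 (lysozyme) held 729, Cd14 (the lipopolysaccharide co-receptor) 622 and Chil3 130. Lyz2 was found in 55 cells and Cd14 in 65, but Chil3 in only 12. Chil3 also counts in the specific granule list of neutrophils used below, and its 4 highest cells held 116 of its 130 UMIs. The third gene of the list in at least 50% of the cells was Plac8 (77 UMIs in 35 cells). On the CPM scale, before the rescalings described below, it was lower than in the Ptprc-low clusters, at 312 against 1412 CPM. Ly6c2 had 31 UMIs in 16 cells, Apoe 30 in 8 and Cd68 24 in 19. In the 20 DSS cells of cluster 21, a small Ptprc-high cluster outside both comparison groups in which every cell held at least 3 genes of this list, Lyz2 stood at 9547 CPM and Cd14 at 1249 CPM, against 2956 and 2522 CPM in cluster 15. Of the 7 genes of the list compared with the Ptprc-low clusters 5 were higher and 1 lower, beside 3.11 and 14.3% of all genes, and 4 of 6 were higher than in clusters 0, 8 and 11 (6.02% of all genes were), where none of the 4 had 50 UMIs. By contrast, C1qa, C1qb, C1qc, Mrc1, Ccr2 and Cx3cr1 were at 0, Adgre1 had 1 UMI and Csf1r 5. Of the mast cell list 4 genes were found, and Hdc, the histidine decarboxylase that makes histamine, supplied 452 of its 457 UMIs in 63 cells.

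Epithelial RNA was present at a low level. At least 3 goblet cell genes were seen in 21 of the 66 cells (7 of 61 after thinning) and at least 3 colonocyte genes in 9 (3 of 61). The 10 epithelial markers summed to 1500 CPM in cluster 15, 1962 CPM in clusters 0, 8 and 11 and 24989 CPM in the Ptprc-low clusters. At least 3 of them were seen in 39 of the 66 cells and 1 cell had none. Epcam had a UMI in 40.9% of the cells (interval 29.0 to 53.7%), against 51.5% in clusters 0, 8 and 11 (interval 46.0 to 57.1%). For the single markers the level in cluster 15 was 2.56 to 9.54% of that in the Ptprc-low clusters, and in clusters 0, 8 and 11 it was 6.32 to 11.6%. Free RNA and doublets can both give such UMIs, and their part was not tested.

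Against the Ptprc-low clusters, 345 of 11106 genes were higher in cluster 15 (3.11%) and 1584 were lower (14.3%). Against clusters 0, 8 and 11, 212 of 3521 genes were higher (6.02%) and 831 lower (23.6%). Of the 3325 genes compared with both groups, 165 were higher in both comparisons, which share the same cluster 15 counts. These splits depended on the scale: the median ratio was 0.183 over the 1431 genes of at least 100 CPM in the Ptprc-low clusters (−2.45 on the log2 scale) and 0.356 over the 1208 such genes in clusters 0, 8 and 11 (−1.49). When cluster 15 was rescaled so that this median became 1, 1695 genes were higher and 586 lower in the first comparison, and 519 were higher and 420 lower in the second. Those genes were picked by their level in the comparison cells, which by itself lowers their ratio. When they were picked instead by the mean CPM of both groups, which left 1208 genes with a median ratio of 0.477 and 1101 with 0.733, the counts were 659 higher and 1014 lower in the first comparison and 264 and 682 in the second. A gene that was rare in the comparison cells reached the minimum of 50 UMIs over both groups only through cluster 15. This favours high ratios among the genes compared. Of the 345 genes, 251 had 50 UMIs in the Ptprc-low cells alone, and of the 212 genes, 70 had them in clusters 0, 8 and 11. Among the 16 neutrophil markers 15 could be compared, and 8 and 1 of them had 50 UMIs in the comparison cells, so that they are given by their levels and not by a count.

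**Figure D2:**
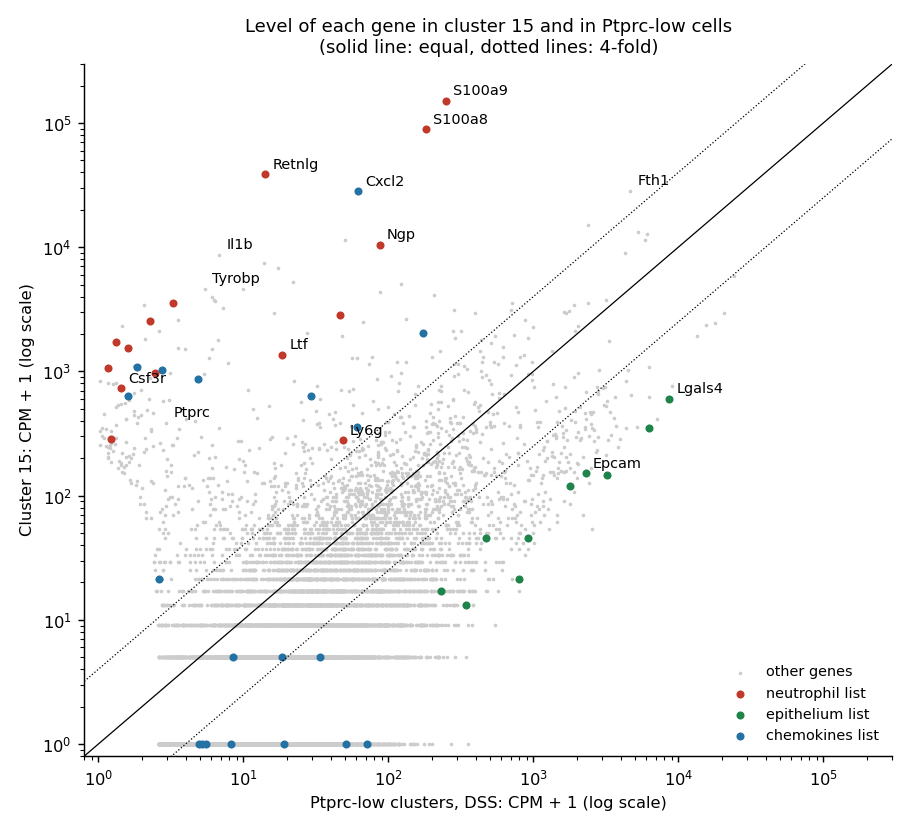
CPM + 1 of every gene with at least 50 UMIs over both groups, in the Ptprc-low DSS cells (x, log scale) and in cluster 15 (y, log scale), with the neutrophil (red), epithelial (green) and chemokine (blue) lists in colour, a solid line of equality and dotted lines at 4-fold. Retnlg, S100a8, S100a9 and Cxcl2 stand far above the upper line and Epcam and Lgals4 below the lower one, and the horizontal rows at the bottom are genes with 0, 1, 2 or more UMIs in cluster 15, where 1 UMI is 4.06 CPM.

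S100a8 and S100a9, the subunits of calprotectin, took 24.0% of all UMIs of the cluster. A cell held between 29 and 2698 UMIs of S100a9 (median 421), which gave 151363 CPM (interval 149831 to 152907), against 248 CPM in the Ptprc-low clusters and 38.0 CPM in clusters 0, 8 and 11. S100a8 ranged from 12 to 1629 UMIs per cell (median 243) and stood at 88999 CPM against 181 and 33.5 CPM. Most Ptprc-low UMIs of both genes lay in the 21 cells of cluster 22, described below, and without it the Ptprc-low cells had 33.3 CPM of S100a9 and 22.9 CPM of S100a8. Every one of the 66 cells had UMIs of both. The genes lie beside each other on chromosome 3 of mouse genome build GRCm38 (mm10), S100a8 at chr3:90668978-90670035 and S100a9 at chr3:90692632-90695721. Retnlg, a resistin-like secreted protein of neutrophils on chr16:48872621-48874496, had UMIs in 64 cells (median 102, highest 785) and 38733 CPM, against 13.2 and 6.09 CPM.

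Of 11 receptors that guide neutrophils or keep them alive, 6 were found in at least 50% of the cells. Csf3r, the receptor of the granulocyte growth factor G-CSF, had 180 UMIs in 59 cells, 13 UMIs among the 30476073 of the Ptprc-low clusters and none in clusters 0, 8 and 11. Cxcr2, the receptor of CXCL2 and related chemokines, had 70 UMIs in 43 cells, against 7 UMIs and 1 UMI. C5ar1, which senses complement fragment C5a, was found in 65 cells at 2328 CPM, and Fpr1, which senses formylated bacterial peptides, in 48 cells at 799 CPM. Ccr1 was found in 59 cells and Ptafr, the platelet-activating factor receptor, in 49, while Cxcr4 had 6 UMIs in 4 cells. Of the 11 receptors 7 reached the minimum of 50 UMIs for a comparison with the Ptprc-low clusters, none of them through the Ptprc-low cells alone. The minimum thus favoured high ratios, and no count of higher receptors is given.

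Il1r2, the decoy receptor that binds IL-1 without signalling, had UMIs in 64 cells and 2535 CPM, against 1.28 and 6.09 CPM. The signalling receptor Il1r1 had 1 UMI. Trem1, an amplifier of innate responses, was found in 60 cells and Clec4e, the lectin Mincle, in all 66 (838 UMIs, median 11 per cell). Among the 26 Fc and lectin receptors, 22 had a UMI, and 14 could be compared with the Ptprc-low clusters, most of them only through their UMIs in cluster 15. Fcgrt, the neonatal Fc receptor, was lower, with 1 UMI in cluster 15 against 86.6 CPM. Tyrobp and Fcer1g, the adaptors through which many of these receptors signal, stood at 4631 and 3662 CPM. Both were also present in clusters 0, 8 and 11, at 466 and 1292 CPM. Without the added 10 CPM, Fcer1g was 2.83-fold higher (counting interval 2.61 to 3.07), and it did not reach the 4-fold mark there.

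Granule genes were unequal. Of 6 azurophil granule genes, Mpo, Elane, Ctsg and Ms4a3 were at 0, Prtn3 had 12 UMIs in 8 cells and Prss57 had 2 UMIs. Camp, Ltf and Ngp, of the specific granule list, had many UMIs in few cells. Camp (cathelicidin) had 700 UMIs in 10 cells, Ltf (lactoferrin) 337 in 7 cells and Ngp (neutrophilic granule protein) 2585 in 28 cells, whereas Lcn2, the iron-siderophore binder lipocalin-2, had 1282 UMIs in 55 cells. Mmp9, the gelatinase gene, was spread more evenly than Camp, Ltf and Ngp, in 62 cells (381 UMIs, highest 28 in a cell). Hp (haptoglobin) was found in 64 cells and Mmp8 in 49. Pglyrp1, a peptidoglycan binder, stood at 2259 CPM in 63 cells but also at 989 CPM in the Ptprc-low clusters, and Cd177 at 385 CPM was close to the 299 CPM there. These granule classes, and the lists of antiproteases and receptors, were drawn up after the first values had been seen.

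Chemokines and cytokines were led by a pair of genes. Cxcl2 had UMIs in 65 cells (median 74.5, highest 409), 28355 CPM in all, against 60.8 and 12.2 CPM. Il1b had UMIs in 63 cells (median 26, highest 128) and 8727 CPM, against 5.84 and 5.32 CPM. Both genes were also high in another Ptprc-high cluster. The 20 DSS cells of cluster 21 had 3987 CPM of Il1b (17 cells, interval 3706 to 4283) and 5337 CPM of Cxcl2 (15 cells), beside 3682 CPM of C1qa, 630 CPM of Csf1r, 534 CPM of S100a8 and 1 UMI of Retnlg. In the normal library the Ptprc-low cells had no Il1b UMI and 7.85 CPM of Cxcl2. Of 32 chemokine genes 12 were found in cluster 15 and 20 were at 0, and of 38 cytokine genes 18 were found and 20 were at 0.

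The other chemokines were each held by part of the cells. Ccl6 was found in 56 cells, Ccl3 in 35, Cxcl3 in 27, Ccl2 in 18, Ccl4 in 16, Cxcl10 in 13 and Cxcl1 in 11. For Ccl4, Cxcl10 and Ccl2 most UMIs lay in few cells: the 4 highest cells held 72.3%, 76.9% and 61.8% of them. For Cxcl3 and Ccl3 the 4 highest cells held 46.1% and 32.4% of the UMIs. Clusters 0, 8 and 11 had no UMI of Ccl2 or Cxcl3 but 225 CPM of Ccl4. Without the added 10 CPM, Ccl4 was 3.84-fold higher in cluster 15 (counting interval 3.20 to 4.59). Ccl5, Ccl20, Cxcl5 and Cxcl9 were at 0 in cluster 15.

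Tnf had UMIs in 29 cells and 693 CPM, against 52.6 CPM in the Ptprc-low clusters and 35.7 CPM in clusters 0, 8 and 11. Cluster 21 had 251 CPM of Tnf, in 13 of its 20 DSS cells, and 181 CPM of Il1rn, in 10. In cluster 15 Il1rn, the IL-1 receptor antagonist, was found in 40 cells (572 CPM), Osm (oncostatin M) in 18 (166 CPM), Il23a, the p19 chain of IL-23, in 13 (126 CPM) and Il1a in 11 (219 CPM). Il6, Il10, Il17a, Ifng, Csf2 and Csf3 had no UMI among the 246586 of the cluster, which allows up to 12.2 CPM each. Of the 13 cytokines compared with the Ptprc-low clusters 7 were higher (3.11% of all genes were) and 2 lower (14.3% of all genes were), and 6 of the 7 had 50 UMIs in the Ptprc-low cells alone.

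**Figure D3:**
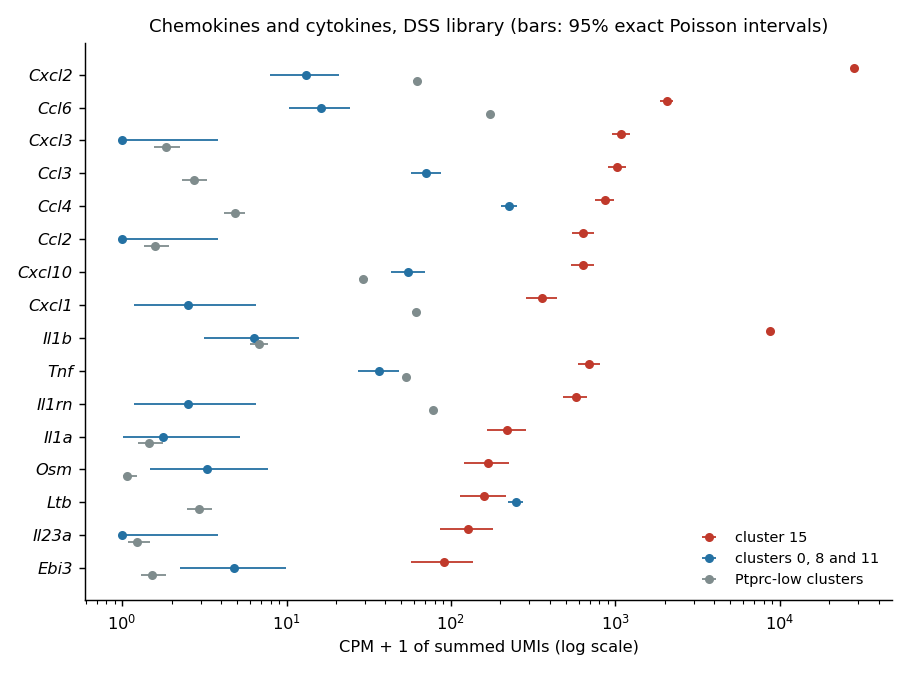
CPM + 1 (log scale) of 16 chemokine and cytokine genes in cluster 15 (red), clusters 0, 8 and 11 (blue) and the Ptprc-low clusters (grey) of the DSS library, with 95% exact Poisson intervals of the summed counts. Cluster 15 lies to the right of both other groups for every gene except Ltb, which stood at 158 CPM in cluster 15 and 246 CPM in clusters 0, 8 and 11.

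Enzymes of the neutrophil response were present as well. Alox5ap, which hands arachidonic acid to the leukotriene pathway, had 979 UMIs in 65 cells, against 5.05 and 8.37 CPM in the other groups. Among the cytosolic parts of the NADPH oxidase, Ncf1 was found in 39 cells and Ncf4 in 37, and its membrane part Cybb in 18. Acod1, which makes itaconate, was found in 52 cells at 1111 CPM. Of 10 antiproteases 9 were found, led by Wfdc17 (11331 CPM) and Slpi, the secretory leukocyte protease inhibitor (4384 CPM). The stefin genes among them (Stfa1, Stfa2, Stfa2l1, Stfa3) are near copies of one another, so the share of UMIs given to each is uncertain. Fth1, the ferritin heavy chain, stood at 28590 CPM, against 4676 and 3701 CPM.

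Levels of other gene groups follow. Of the 10 genes of MHC class II presentation 4 were found, with 11 UMIs in all (44.6 CPM against 13459 CPM in clusters 0, 8 and 11), and Ciita and H2-Aa were at 0. Class I genes were present in all cells, with 3139 CPM of H2-D1 and 657 CPM of B2m. Of 20 S phase and mitosis genes Mki67, Cdk1, Ccnb1 and 8 others were at 0, and 222 of the 239 UMIs were Hmgb2 and H2afz. The list summed to 969 CPM, against 1159 CPM in the Ptprc-low clusters and 1739 CPM in clusters 0, 8 and 11. Compared with the Ptprc-low clusters, 0 of 20 were higher and 2 lower, beside 3.11 and 14.3% of all genes. Compared with clusters 0, 8 and 11, 0 of 6 were higher and 3 lower, beside 6.02 and 23.6%. Of the 16 genes of the dissociation response none was higher than in the Ptprc-low clusters and 5 were lower, beside 3.11 and 14.3% of all genes. Their median ratio was 0.364, below 1 on the CPM scale and between the 0.183 and 0.477 of the genes used for the rescalings. Of the lineage transcription factors, Cebpb (5021 CPM, all 66 cells) and Spi1, which encodes PU.1 (706 CPM, 59 cells), were higher than in the Ptprc-low clusters, and Cebpe had 4 UMIs. Of the 18 factors compared, these 2 were higher and 3 lower (3.11 and 14.3% of all genes were), and against clusters 0, 8 and 11, Cebpb, Cebpd and Spi1 were higher and 12 of 18 lower (6.02 and 23.6% of all genes were). Of the higher genes Cebpb alone had 50 UMIs in the comparison cells in either comparison. For Spi1 in both and Cebpd in the second, the minimum of 50 UMIs thus favoured a high ratio. Of 27 interferon-induced genes 23 were found, 16 of them in at least 10% of the cells and 5 in at least 50%. A cell held a median of 6 and at most 21. Of the 25 compared with the Ptprc-low clusters 11 were higher, each with 50 UMIs in the Ptprc-low cells alone, and 0 lower, beside 3.11 and 14.3% of all genes. Against clusters 0, 8 and 11, 6 of 14 were higher, 4 of them with 50 UMIs there, and 1 lower, beside 6.02 and 23.6%. The interferon-induced genes were unequal: Ifitm1, Ifitm2 and Ifitm3 stood at 7409, 4092 and 2652 CPM in 66, 66 and 62 cells, while Ifit1 had 6 UMIs and Mx1, Ifit2 and Ifit3 were at 0.

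The promoters of 3 leading genes are shown because the genes were high together in one cluster and because Cebpb, which encodes a C/EBP factor, had UMIs in every cell. Each of the 3 holds a match of a motif searched below, which other leading genes lack. Whether a C/EBP factor acts on any of them was not tested. Windows of 250 bases before the RefSeq start (build GRCm38.p6) were available for 22 of the 30 genes with the largest ratio over the Ptprc-low clusters. The genes that were not matched are Tyrobp, Alox5ap, Hp, Cd52, Wfdc21, Mmp9, Hcar2 and Rac2. The letters TTGCNNAA, a C/EBP-type motif, were searched on both strands and found in 6 of the 25 windows of these 22 genes (24.0%), against 9.56% of all 32851 windows. The letters GGGA and CC with any 4 bases between them, an NF-kB-type motif, were found in 5 of the 25 (20.0%), against 17.6% of all windows. A match of letters is not a binding site, and the share over 25 windows carries no test.

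The 250 bases before the starts of S100a9 (chr3:90695722-90695971, minus strand), Retnlg (chr16:48872358-48872607, plus strand) and Cxcl2 (chr5:90903649-90903898, plus strand) read as follows, 5′ to 3′, with matches in capitals. The capitals are the C/EBP-type letters in the first and second and the NF-kB-type letters, matched on both strands 1 base apart, in the third.
S100a9: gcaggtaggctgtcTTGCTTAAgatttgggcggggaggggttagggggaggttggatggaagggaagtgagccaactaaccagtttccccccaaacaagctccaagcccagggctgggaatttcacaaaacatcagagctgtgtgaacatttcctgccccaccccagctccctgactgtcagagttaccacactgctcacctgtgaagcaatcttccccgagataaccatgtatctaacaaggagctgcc
Retnlg: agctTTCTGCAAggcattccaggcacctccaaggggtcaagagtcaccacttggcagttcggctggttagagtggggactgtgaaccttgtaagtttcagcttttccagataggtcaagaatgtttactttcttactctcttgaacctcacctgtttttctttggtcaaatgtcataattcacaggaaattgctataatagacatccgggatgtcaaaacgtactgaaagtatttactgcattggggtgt
Cxcl2: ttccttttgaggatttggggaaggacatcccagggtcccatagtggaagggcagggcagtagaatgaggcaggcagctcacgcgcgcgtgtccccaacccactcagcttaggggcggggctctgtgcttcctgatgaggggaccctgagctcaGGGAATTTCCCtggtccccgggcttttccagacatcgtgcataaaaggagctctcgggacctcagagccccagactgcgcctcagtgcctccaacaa
The match lies 236 bases before the start in S100a9, 246 in Retnlg and 97 in Cxcl2. Neither motif was found in the windows of S100a8 and Il1b.

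Within the cluster the cells were not alike. The share of UMIs in the 16 neutrophil markers ran from 3.09 to 51.9% (median 27.2%). The 4 cells with the most Camp UMIs, singled out after their values had been seen, held 677 of the 700 Camp UMIs of the cluster (96.7%). The 4 highest cells for each gene held 96.4% of the Ltf and 81.0% of the Ngp UMIs. The first of these cells had 325 Camp, 923 Ngp and 170 Ltf UMIs and no UMI of Il1b or Cxcl2. The second had 281 Camp and 586 Ngp UMIs, no Il1b and 1 Cxcl2 UMI. The other two were mixed, with 363 and 221 Ngp UMIs, 409 and 99 Cxcl2 UMIs, and 28 and 0 Il1b UMIs. All 4 were deep cells of 8882 to 12235 UMIs. At the other end, the cell with the most Il1b (128 UMIs) had 186 Cxcl2 UMIs, and the next 3 by Il1b had 31, 210 and 209. None of these 4 cells had a UMI of Camp or Ngp.

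To set cells of unequal depth side by side, the 61 cells of at least 2000 UMIs were thinned to 2000. Of the 6 specific granule genes only Lcn2 had UMIs in at least 50% of the 66 cells (55, against 28 for Ngp and 10 for Camp). The ranks of their sum thus rest largely on Lcn2. Spearman's rho between the sum of these 6 genes and Il1b was −0.59 over the 61 thinned cells, and −0.34 with Cxcl2. Il1b and Cxcl2 went together (0.59), and S100a8 plus S100a9 went with the granule genes (0.72) and against Il1b (−0.71). Without thinning the first of these was −0.37 over all 66 cells. All cells come from 1 library, and the thinned granule count still followed the cell's original depth (0.63), as Il1b did in the other direction (−0.47), so these values describe a gradient along which depth also changed. After thinning every cell has the same 2000 UMIs, of which S100a8 plus S100a9 took 37 to 790. Parts of a fixed total tend to go against each other. What part depth and the fixed total have in these values was not tested.

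**Figure D4:**
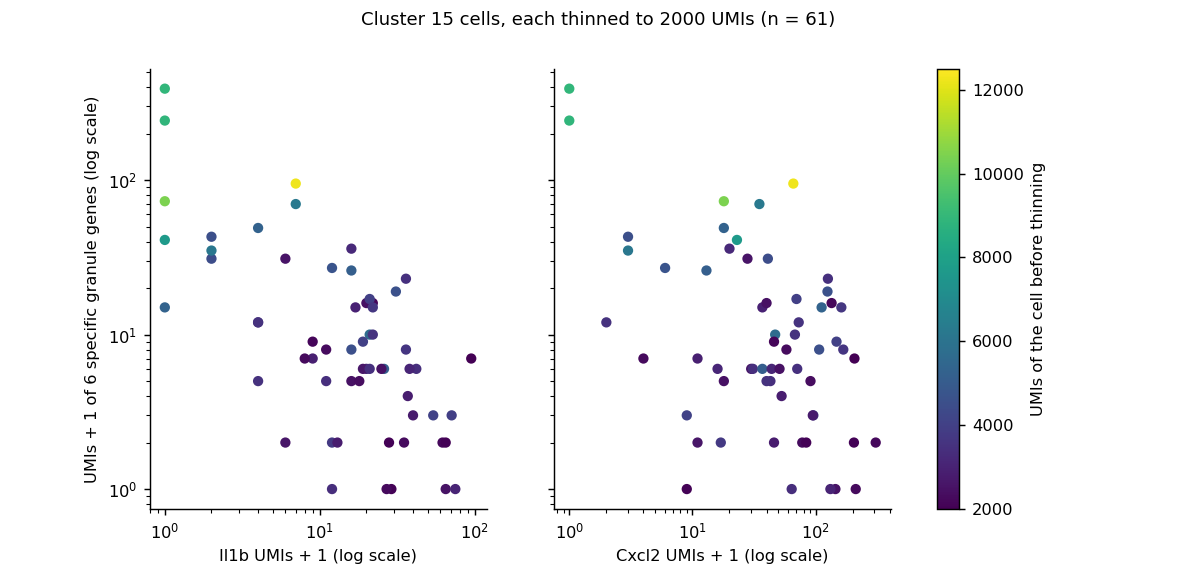
UMIs + 1 of 6 specific granule genes (y, log scale) against UMIs + 1 of Il1b (left) and Cxcl2 (right) on log scales, in the 61 cells of cluster 15 thinned to 2000 UMIs, coloured by the UMIs of each cell before thinning. The cells with the most granule UMIs are deep cells with few Il1b UMIs, and the rank correlations are −0.59 for Il1b and −0.34 for Cxcl2.

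Most cells with several neutrophil markers were in clusters 15 and 22 of the DSS library. At 2000 UMIs per cell, 73 of 1746 labelled DSS cells held at least 3 of them (4.18%, interval 3.29 to 5.23%), 61 from cluster 15, 5 from cluster 22 and 7 from elsewhere. Without thinning 135 of 1933 did, 48 of them outside both clusters. In the normal library no labelled cell did, 0 of 1069 after thinning (which allows up to 0.281%) and 0 of 1132 without. S100a8 and S100a9 had no UMI in any labelled normal cell. Outside clusters 15 and 22, the DSS cells of the Ptprc-low clusters had 22.9 CPM of S100a8 and 33.3 CPM of S100a9, with UMIs in 14.2% and 18.4% of cells. The number of neutrophils in the tissue and their yield in the crypt preparation cannot be told apart with 1 library per condition.

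Cluster 22, 21 cells that also came from the DSS library alone, was the nearest to cluster 15 in these markers. All 21 held at least 3 neutrophil markers and all 21 had Epcam. In 19 of them the markers took 4.60 to 11.05% of 1123 to 2542 UMIs, beside 2696 CPM of Epcam and 10230 CPM of Lgals4, and none had a UMI of Ptprc, Csf3r, Il1b or Cxcl2. Per 100 S100a9 UMIs these 19 cells had 53.5 Ngp and 29.1 Camp UMIs and 1.53 of Retnlg, whereas cluster 15 had 6.93, 1.88 and 25.6. Without the 4 cells with the most Camp, the other 62 cells of cluster 15 had 1.71, 0.0800 and 27.5. The remaining 2 cells of cluster 22 had 12479 and 14740 UMIs, 45.4 and 52.5% of them in neutrophil markers. Between them they had 2118 Ngp, 1102 Camp and 414 Ltf UMIs, no Il1b and 4 Ptprc UMIs. They also had 34 Cxcl2 UMIs and 2 Csf3r UMIs, each gene in 1 of the 2 cells. Without cluster 22 among the Ptprc-low cells, 339 genes were higher in cluster 15 and 1587 lower.

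**Figure D5:**
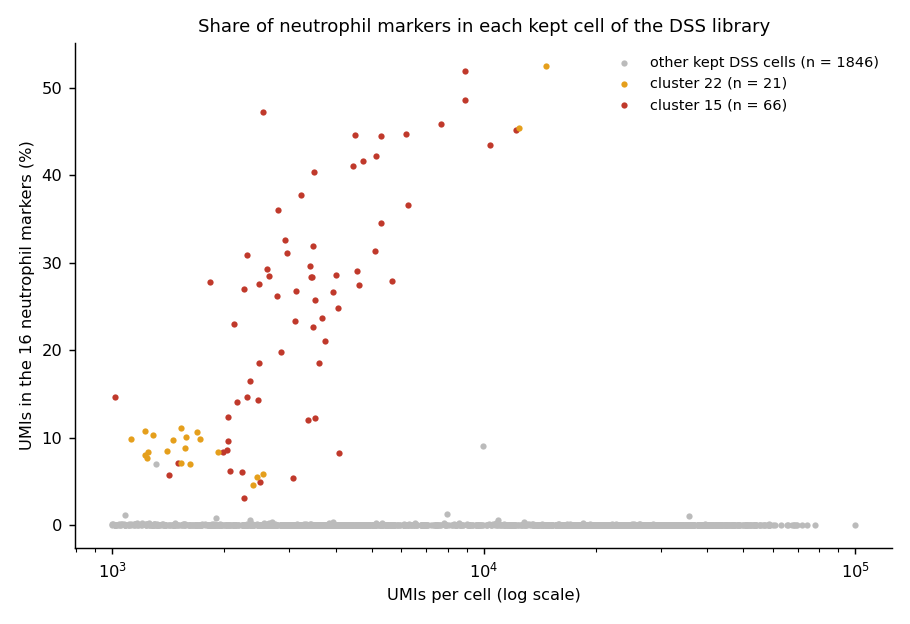
Percent of UMIs in the 16 neutrophil markers (y) against the UMIs of each labelled DSS cell (x, log scale), for cluster 15 (red, 66 cells), cluster 22 (orange, 21 cells) and the other 1846 cells (grey). Cluster 15 spreads from 3.09 to 51.9%, 19 cells of cluster 22 lie between 4.60 and 11.05% at low depth, 2 lie with the deepest cells of cluster 15, and the grey cells sit at or below 1.24% except for 2, at 8.999 and 6.95%.

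Ly6g, the antigen by which mouse neutrophils are usually stained, was a weak marker in these counts. It had 69 UMIs in 28 of the 66 cells (280 CPM, interval 218 to 354), against 3.04 CPM in clusters 0, 8 and 11. Among Ptprc-low cells outside cluster 22 it stood at 47.5 CPM in the DSS library, in 18.6% of cells, and at 28.0 CPM in the normal library, in 16.1% of cells, where S100a8, S100a9 and Retnlg had no UMI.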

How the data were processed

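Both colonic libraries were 10x 3′ libraries, and the counts are the UMI counts per gene and barcode that the authors deposited as filtered matrices. The submitters' processing notes name Cell Ranger 3.0.0 and Seurat 3.1.4, which the methods give for 8 samples, and the matrix header gives 3.1.0. The build is mm10. The table of labelled cells, with clusters named by the authors, was deposited beside a count table whose 23775 genes of 1 ID equalled the matrices in every labelled colonic cell (0 of 72870375 entries differed). The label column holds no measurement. UMIs were summed over cells and scaled to CPM. Genes needed 50 UMIs over both groups. Intervals are exact Poisson or binomial at 95%, a count of 0 allows 3 counts, and both cover counting error only. Named genes were the 30 with the largest ratio in each comparison among those in 20% of the cells, the 15 of highest CPM outside mitochondrial, ribosomal protein and immunoglobulin genes, and members of the lists. Cells were thinned with seed 20. No doublet caller was run here. Instead, cells with 3 or more epithelial markers, or the 10% of each library with the most UMIs (0 of cluster 15), were left out as alternatives. The members and lists were chosen with earlier results of these data known. Functions were tested on simulated data. Python 3.11.15 was used with numpy 2.4.6, scipy 1.17.1, pandas 2.3.3 and matplotlib 3.10.9, and gene positions are from GENCODE M21.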

Additional observations from a re-analysis of the deposited data

Results flagged for a closer look

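Barcodes outside the labelled cells also held neutrophil markers. Of 2813 such DSS barcodes, 25 had at least 5 of the 16 markers (0.889%, 95% exact binomial interval 0.576 to 1.31%), against 0 of 2495 in the normal library. Of the 25, 14 had at most 500 genes, 14 at most 1000 UMIs and 10 over 20% mitochondrial UMIs, with some failing more than one bound. Their median was 846 UMIs, with 8.47% in the neutrophil markers. These barcodes were singled out because they lie outside every comparison of the report, and what they are was not tested.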

How the results depend on the processing

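At least 3 neutrophil markers were found in 0 normal cells, thinned to 2000 or 5000 UMIs or not thinned. Cells of cluster 15 held 6 to 16 markers each, so that limits of 2 or 3 could not change their share. The size of the ratios did change: S100a9, 586-fold over the Ptprc-low clusters, was 167-fold by the mean of each cell's CPM and 3493-fold without cluster 22. The share of the cluster was 1.39% of all DSS barcodes, 0.214% of cells with at least 1500 genes and 14.8% of Ptprc-high cells. Cells of cluster 15 with at least 3 epithelial markers were 59.1% without thinning, and cells with at least 2 were 68.9% at 2000 UMIs. DSS cells with 3 neutrophil markers were 2.07% at 5000 UMIs and 6.98% without thinning.

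Against the Ptprc-low clusters, the genes lower by 4-fold were 5462 with 1 CPM added and 2645 among cells with at least 1500 genes. Without cells holding 3 epithelial markers, which removed nearly all comparison cells, 116 were higher and 29 lower of 221. With rescaling they were 1695 and 586, or 659 and 1014 with the genes picked by the mean. Against clusters 0, 8 and 11, the genes higher were 358 without a count minimum and 67 among cells with at least 1500 genes. They were 104 higher and 170 lower without epithelial-marker cells, 519 and 420 with rescaling, and 301 and 236 lower against cluster 8 or 11 alone. Ptprc, at 0.801 of the Ptprc-high level with 10 CPM added, turned to 2.21 and 1.08 with the rescalings and 1.83 against cluster 8 alone. These last were the 3 reversals among 325 values of single genes, of which 168 left the counting interval of the main value and 154 did not. Leaving out the 4 cells with the most Camp gave 343 higher and 1584 lower against the Ptprc-low clusters. The rescalings, the single clusters and this alternative were chosen after seeing the data.

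No paired analysis was possible because each colonic condition is 1 library, and no library could be left out. Depth limits low genes: 1 UMI is 4.06 CPM, and 4134 of the genes compared with the Ptprc-low clusters had 0 UMIs in cluster 15.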

Other observations

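Genes of glucose use are a further group. All 22 genes of the glycolysis and hypoxia list were found, 2 of 22 compared were higher and 1 lower than in the Ptprc-low clusters (3.11% and 14.3% of all genes were), and 4 of 16 were higher and 0 lower than in clusters 0, 8 and 11 (6.02% and 23.6% of all genes were). Of the 4, 2 had 50 UMIs in clusters 0, 8 and 11, and of the 2, 1 had them in the Ptprc-low clusters. Both genes that were higher than in the Ptprc-low clusters move substrates across the membrane: Slc2a3, the glucose transporter GLUT3, with 71 UMIs in 31 cells (288 CPM against 0.328 and 12.9 CPM), and Slc16a3, the lactate exporter MCT4, with 175 UMIs in 56 cells (710 CPM against 9.78 and 3.80 CPM). Slc7a11, the cystine transporter, had 236 UMIs in 52 cells (957 CPM against 4.33 and 0.761 CPM).

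Cd274, which encodes PD-L1, had 28 UMIs in 17 cells (114 CPM, interval 75.5 to 164, against 38.8 CPM in clusters 0, 8 and 11), and Nlrp3, the inflammasome sensor, had 60 UMIs in 33 cells and none in clusters 0, 8 and 11.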
